A study of Mus musculus with 21 samples.

Results

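Cish, Socs1, Socs2 and Socs3 are 4 of the 17516 genes counted in 21 single-cell RNA libraries of mouse CD8 T cells, and they were chosen by their symbols. They encode CIS and the first members of the SOCS family, cytoplasmic proteins that restrain cytokine signalling. The series asked how IL-2, IL-15 and IL-2v, which the treatment labels call mutant IL-2bg, shape T cells in culture, and each of its 21 conditions had 1 library. With no replicates, no test was run: differences are sizes between libraries, intervals are 95% intervals for counting error only, and whether a difference exceeds the spread between cultures was not tested.

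All cells came from OT1 mice, whose T cells carry a transgenic T cell receptor for a peptide of ovalbumin. The naive library was taken on day 0, before activation. Cells of the other 20 libraries were activated on day 0 with beads coated with antibodies to CD3 and CD28. After activation, 2 libraries were grown with no added cytokine and taken on day 3 or day 5. The remaining 18 were grown with wild type IL-2, IL-2v or IL-15 at 5 or 50 IU/mL and taken on day 3, 5 or 10. The treatment labels of the 50 IU/mL IL-2 and 50 IU/mL IL-15 libraries name interleukin-3 and interleukin-16, so for these the titles and the design text were followed. There was no library without cytokine on day 10.

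Binding of IL-2 or IL-15 to the shared beta and gamma receptor chains activates the kinases JAK1 and JAK3, which phosphorylate STAT5, and STAT5 turns on the genes of several proteins that then act back on the receptor. CIS and the SOCS proteins each hold an SH2 domain, which binds phosphorylated tyrosines, and a SOCS box, which recruits elongins and the scaffold Cul5 to mark bound proteins for destruction. CIS is known as a brake on IL-2 receptor and T cell receptor signals in CD8 T cells, SOCS1 as an inhibitor of JAK kinases and of interferon gamma signalling, SOCS2 as a regulator of growth hormone signalling, and SOCS3 as an inhibitor of receptors that use gp130, such as that of IL-6.

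The promoters are shown because STAT5 dimers prefer the palindrome TTCNNNGAA, in which N is any base. RefSeq sequences around the RefSeq gene start (build GRCm38.p6) were at hand for 3 of the 4 genes, Cish, Socs1 and Socs3. Matches were sought in 300 bases, from 250 before to 50 after the start. The motif reads the same on both strands. Printed 5′ to 3′ on the gene's strand, with matches in capitals, are 170 bases before to 30 after the start for Socs3 and Socs1. For Cish it is the 30 bases from the start.
Cish, chr9:107296659-107296688, plus strand: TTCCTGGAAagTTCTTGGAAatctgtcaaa
Socs3, chr11:117969337-117969536, minus strand: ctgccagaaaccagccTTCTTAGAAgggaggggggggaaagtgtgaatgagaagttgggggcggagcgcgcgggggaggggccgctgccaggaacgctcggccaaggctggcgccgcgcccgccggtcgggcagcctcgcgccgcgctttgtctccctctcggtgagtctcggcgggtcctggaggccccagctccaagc
Socs1, chr16:10785507-10785706, minus strand: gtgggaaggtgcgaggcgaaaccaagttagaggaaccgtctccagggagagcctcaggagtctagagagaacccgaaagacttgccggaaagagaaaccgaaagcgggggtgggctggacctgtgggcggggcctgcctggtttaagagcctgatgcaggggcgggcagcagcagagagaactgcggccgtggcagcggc
The Cish window held 2 matches, TTCCTGGAA at chr9:107296659-107296667 and TTCTTGGAA at chr9:107296670-107296678, the first of them beginning at the RefSeq start. The Socs3 window held 1, TTCTTAGAA at chr11:117969512-117969520, beginning 154 bases before the start, and the Socs1 window held 0. Of 32851 promoters of this length in the table, 8.3% held at least 1 match and 0.457% at least 2. A match describes letters and is not a measured site. GENCODE vM21 starts Cish and Socs3 further upstream. All bases printed for these 2 lie within the GENCODE gene, those of Cish in the 5′ UTR of a transcript.

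In the GENCODE vM21 annotation (GRCm38), Cish lies on the plus strand of chr9:107296026-107302784, Socs1 on the minus strand of chr16:10782240-10785536, Socs2 on the minus strand of chr10:95385362-95417180 and Socs3 on the minus strand of chr11:117966079-117970047. Cish shares 4.07% of its exonic bases with the pseudogene Gm17040 and 7.46% with the antisense RNA Gm17041, both on the opposite strand, and whether counting used the strand is not given in the sources used here. The other 3 genes overlap no annotated gene.

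The libraries held 3250 to 7105 cells after filtering, 10589950 to 32648496 summed UMIs (each UMI marks 1 captured RNA molecule) and a median of 3016 to 5065 UMIs per cell. Levels are given as CPM, the UMIs of a gene per 1000000 summed UMIs of its library, and 3 UMIs, the limit that a count of 0 allows, correspond to 0.0919 to 0.283 CPM. Of the markers of the CD8 label, Cd8a was found in 37.1% to 74.2%, Cd8b1 in 54.5% to 92.0% and Cd3d in 93.0% to 99.5% of cells. Ms4a1 was found in at most 0.0209%, Lyz2 in at most 0.126% and Hbb-bt in at most 0.835% of cells, while Cd4 reached 1.49% in naive cells. Of the B cell receptor genes, Cd79a was at 0.0733 to 1.15 CPM and Cd79b at 1.47 to 17.1 CPM (8.63 CPM on day 10 with 5 IU/mL IL-2). The myeloid list summed to at most 4.54 CPM and the erythroid list to at most 3.15 CPM. The NK receptor gene Klrb1c reached 13.05% on day 10 with 50 IU/mL IL-2v, 8.71% on day 10 with 50 IU/mL IL-2 and 6.49% on day 10 with 5 IU/mL IL-2. Any pair of libraries shared 1 to 19 cell barcodes. The library of 5 IU/mL IL-2 on day 10 stood apart for these genes, so ranges, medians and correlations that moved without it are also given without it.

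Cish ranged 80.0-fold, from 4.71 CPM (interval 3.77 to 5.81) in naive cells to 377 CPM (370 to 384) on day 10 with 5 IU/mL IL-2, with a median of 31.2 CPM over the 21 libraries. Without that library the highest was 163 CPM, on day 10 with 50 IU/mL IL-2, and the range 34.6-fold, narrower than the 40.2-fold of Socs2. Next came 150 CPM on day 10 with 50 IU/mL IL-2v and 147 CPM on day 3 with 50 IU/mL IL-2, and the intervals of the last 2 overlapped. The bottom of the order was a run from 18.5 to 8.27 CPM in which every neighbouring interval overlapped. It held 5 IU/mL IL-15 on all 3 days, 5 IU/mL IL-2 on days 3 and 5, 50 IU/mL IL-15 on day 3 and both libraries without cytokine. Naive cells lay below that run.

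Socs1 was at 20 CPM or more in all 21 libraries and ranged 11.1-fold, from 47.3 CPM in naive cells (44.2 to 50.5) to 524.5 CPM (516.3 to 532.7) on day 10 with 5 IU/mL IL-2. The next library, 50 IU/mL IL-15 on day 10, stood at 230.7 CPM, so that the range without the highest was 4.88-fold, and the remaining cultured libraries lay between 63.9 and 161.8 CPM. From 161.8 down to 130.6 CPM, 7 libraries had neighbouring intervals that overlapped, and they mixed no cytokine, IL-2, IL-2v and IL-15.

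Socs2 ranged 40.2-fold, from 3.303 CPM in naive cells to 133 CPM on day 3 with 50 IU/mL IL-2. At the top, 50 IU/mL IL-2v on days 3 and 5 and 5 IU/mL IL-2 on day 10 followed with 121, 115 and 115 CPM and overlapping intervals. At the bottom, the library of 5 IU/mL IL-15 on day 10 stood at 3.48 CPM (2.76 to 4.32), an interval that overlapped that of naive cells (2.53 to 4.24). The next lowest was the day 5 library without cytokine, at 8.26 CPM.

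Socs3 had its highest level in naive cells, 44.6 CPM (41.6 to 47.8), and ranged 6.73-fold. It reached 20 CPM in 5 libraries only: naive cells, 5 IU/mL IL-2 on day 10 (34.7 CPM), 50 and 5 IU/mL IL-15 on day 10 (28.6 and 27.8 CPM, overlapping intervals) and no cytokine on day 5 (24.2 CPM). The lowest were the day 10 libraries with 50 IU/mL IL-2 (8.87 CPM) and 50 IU/mL IL-2v (6.63 CPM). Between those 5 and these 2 lay 14 libraries that, from 19.6 to 12.02 CPM, formed an unbroken run of overlapping intervals.

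**Figure D1:**
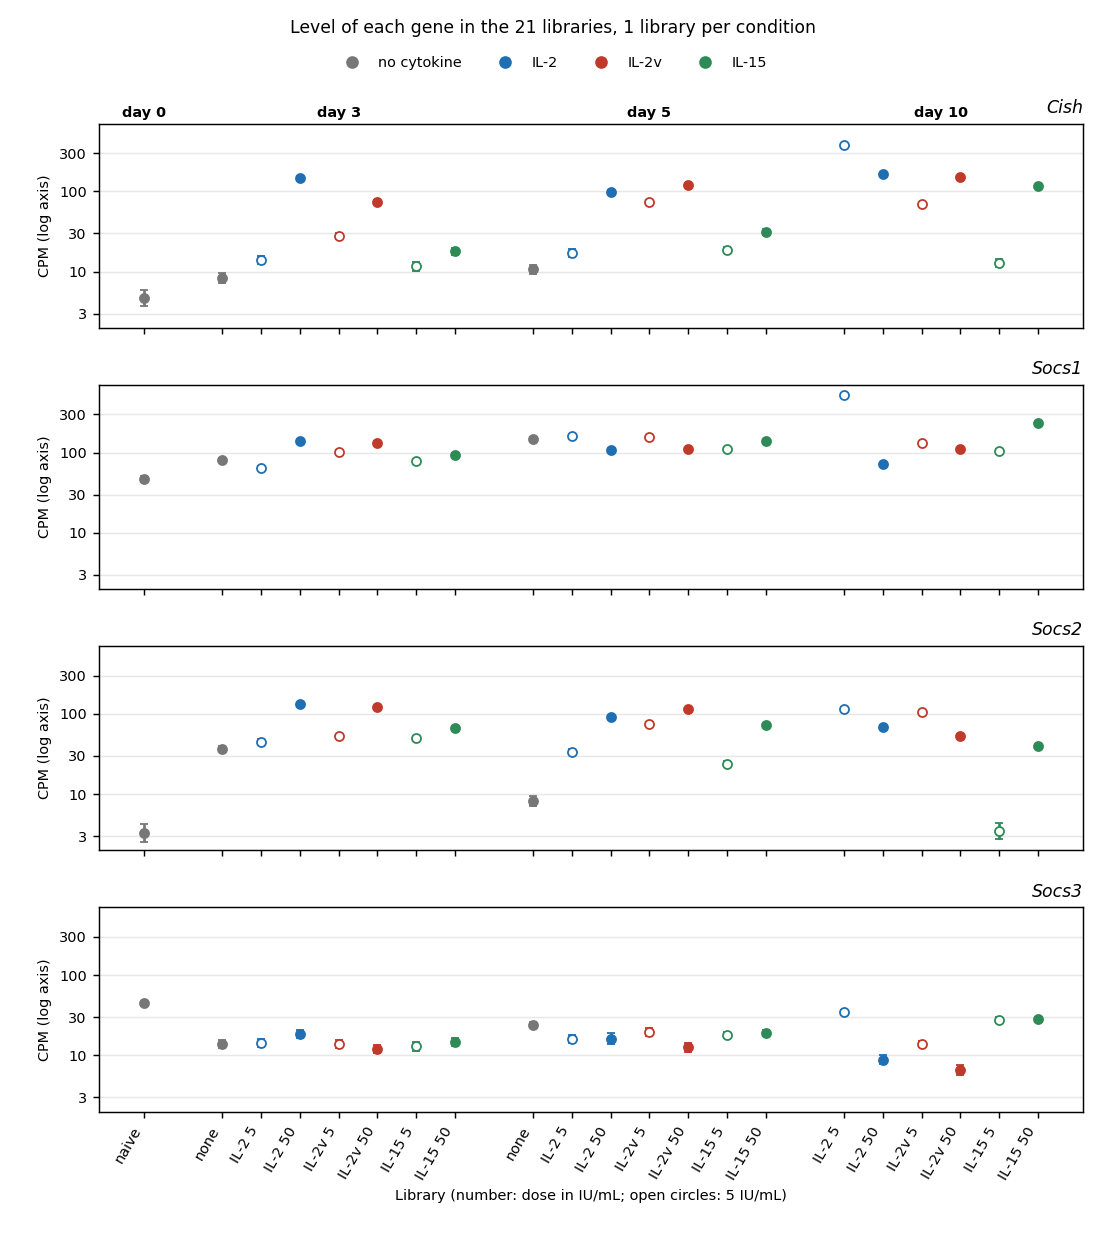
CPM of each gene on a log axis in the 21 libraries (1 point per library, bars are exact Poisson 95% intervals, open circles 5 IU/mL), ordered by day, cytokine and dose. Cish and Socs1 peak in the library of 5 IU/mL IL-2 on day 10 (377 and 524.5 CPM), Socs2 is at 3.48 CPM with 5 IU/mL IL-15 on day 10, and Socs3 is highest in naive cells (44.6 CPM).

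Activation without cytokine was examined by setting day 3 against naive cells. Differences here and below are between log2(CPM + 1) values, on which changes of weakly expressed genes come out too small, and a pair counts as 2-fold apart where they differ by at least 1. Socs2 was higher after activation by 3.14 (37.0 against 3.303 CPM) and Socs3 lower, by -1.60 (14.02 against 44.6 CPM). Cish (0.70) and Socs1 (0.77) were higher by less than 2-fold. So 2 of the 4 genes were at least 2-fold apart, where 19.4% of the 6171 genes with at least 20 CPM in either library were, and Cish was below that limit in both. Socs2 reached it only on day 3 and Socs3 only in naive cells, the libraries where each was high. Among cells with no UMI of either proliferation gene, Mki67 and Top2a, all 4 were 2-fold apart, with Cish at 1.15 and Socs1 at 1.36, where 18.9% of 5925 genes were. Of 7 receptor chain genes, Il2ra and Il2rb were higher and Il7r lower. Of 7 genes listed for interferon response, Gbp2 was higher and 4 were lower (Isg15, Ifit1, Ifit3 and Irf7). That list includes Ifng, which encodes interferon gamma itself and is not a response gene.

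From day 3 to day 5 without cytokine, Socs2 was lower by -2.04 (8.26 against 37.0 CPM), and 1 of the 4 genes passed 2-fold, against 13.1% of 5785 genes. Socs2 reached the 20 CPM limit there only on day 3. Socs1 (149.5 against 81.4 CPM, 0.87) and Socs3 (24.2 against 14.02 CPM, 0.75) were higher by less than 2-fold, and Cish stood at 10.7 against 8.27 CPM. Of the 7 receptor chains, Il2ra and Il2rb were lower and Il2rg (386.0 against 190.3 CPM), Il15ra (20.4 against 7.55 CPM) and Il7r higher. In the same step 5 of the 7 genes listed for interferon response were at least 2-fold higher, Isg15, Ifit1, Ifit3, Irf7 and Ifng. Of the 7, 4 reached the 20 CPM limit in this step. Ifng, at most 6.93 CPM in any library, was not among those 4.

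Cytokine was then compared with no cytokine on the same day. The 6 comparisons of a day share 1 control library. Cish and Socs2 were the members that passed 2-fold, always higher with cytokine, and Socs1 and Socs3 passed in none of the 12 comparisons, with differences of -0.45 to 0.78 for Socs1 and -0.89 to 0.38 for Socs3. With TMM scaling (edgeR) or with ribosomal and mitochondrial genes left out of the totals, Socs3 with 50 IU/mL IL-2v on day 5 did pass, at -1.20 and -1.06. On day 3, 6 of 24 values (4 genes in 6 comparisons) were at least 2-fold higher, and on day 5, 10 of 24.

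On day 3, Cish stood at 8.27 CPM without cytokine, at 13.97 and 147 CPM with 5 and 50 IU/mL IL-2, at 27.8 and 73.7 CPM with IL-2v and at 11.6 and 18.02 CPM with IL-15. All 6 cytokine libraries lay above the control, and the 2 high-dose libraries of IL-2 and IL-2v lay far above the rest. The difference with 50 IU/mL IL-2 was 3.996, rank 5 from the highest among 6030 genes. With 50 IU/mL IL-2v it was 3.01 (rank 6 of 6069), and with 5 IU/mL IL-2v 1.64 (rank 2 of 5678). Cish was below the 20 CPM limit in the control, so it entered these rankings only through the libraries where it was high. Socs2 stood at 37.0 CPM in the control, at 44.8 and 133 CPM with IL-2, at 53.5 and 121 CPM with IL-2v and at 49.6 and 67.5 CPM with IL-15, where each pair gives 5 and then 50 IU/mL. It too was highest in the 2 high-dose libraries of IL-2 (1.81) and IL-2v (1.68).

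Read against all genes tested, the day 3 counts were as follows. Where Cish reached the 20 CPM limit, it did so only in the cytokine library. With 50 IU/mL IL-2, 2 of 4 members were 2-fold apart, against 9.19% of genes, and with 50 IU/mL IL-2v again 2 of 4, against 9.57%. With 5 IU/mL IL-2v, Cish alone passed, where 0.282% of genes did. With 50 IU/mL IL-15, Cish passed at 1.04, against 1.08% of genes, although at 18.02 CPM it was itself below the 20 CPM limit and under 5 of the alternatives it came to between 0.60 and 0.97. With 5 IU/mL IL-2 and 5 IU/mL IL-15 no member passed, and neither did most genes, 0.248% and 0.427% of which were 2-fold apart.

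On day 5 the control held Socs2 at 8.26 CPM, and Socs2 passed 2-fold in all 6 comparisons. Its levels were 33.7 and 91.7 CPM with 5 and 50 IU/mL IL-2, 75.7 and 115 CPM with IL-2v, and 24.1 and 72.4 CPM with IL-15, with differences of 1.44 (5 IU/mL IL-15) to 3.65 (50 IU/mL IL-2v). With a pseudocount of 10 the lowest of these was 0.90, under 2-fold. Cish stood at 10.7 CPM in the control, at 17.2 and 97.4 CPM with IL-2, at 73.2 and 120 CPM with IL-2v and at 18.5 and 31.2 CPM with IL-15. At 5 IU/mL, the Cish difference from the control was 2.67 with IL-2v, 0.64 with IL-2 and 0.74 with IL-15.

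On day 5 the members 2-fold apart were 1 of 4 with 5 IU/mL IL-2, against 2.5% of genes, and 1 of 4 with 5 IU/mL IL-15, against 1.74%, in both cases Socs2. They were 2 of 4, Cish and Socs2, with 50 IU/mL IL-2 (24% of genes), 5 IU/mL IL-2v (12.4%), 50 IU/mL IL-2v (26.7%) and 50 IU/mL IL-15 (7.72%). Both genes were below 20 CPM in the control (10.7 and 8.26 CPM). They entered these comparisons only through the cytokine libraries where they were high. Under a pseudocount of 10, Cish with 50 IU/mL IL-15 came to 0.99, just under 2-fold.

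**Figure D2:**
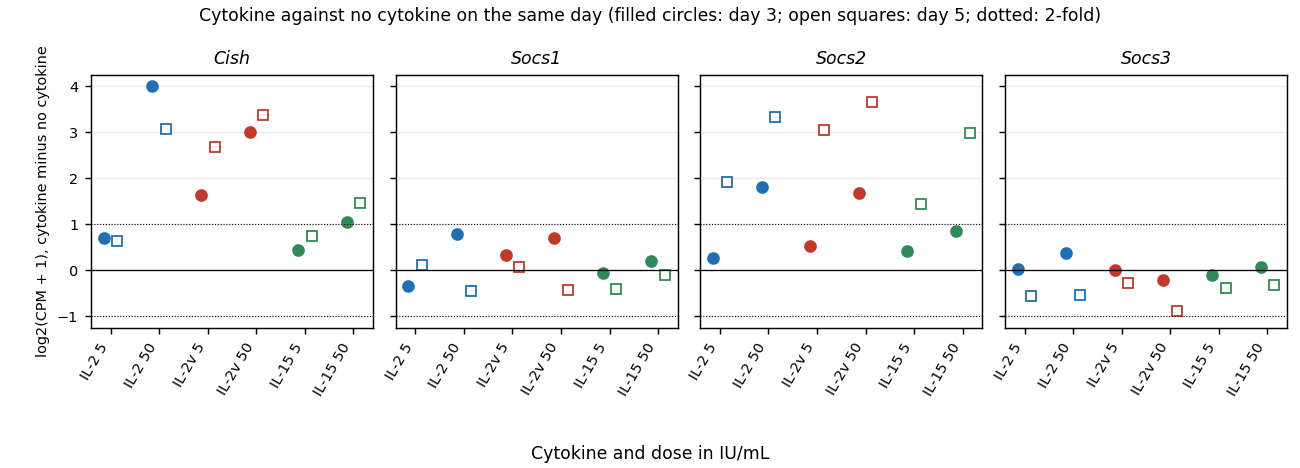
Difference in log2(CPM + 1) between each cytokine library and that day's library without cytokine (filled circles day 3, open squares day 5, dotted lines 2-fold, colours blue for IL-2, red for IL-2v and green for IL-15). Cish and Socs2 lie above 0 in all 12 comparisons, up to 3.996 and 3.65, while Socs1 and Socs3 stay within the dotted lines (Socs3 with 50 IU/mL IL-2v on day 5 passes them, at -1.20, with TMM scaling).

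The wider pathway was described by lists chosen for their role. Of 10 other genes that STAT5 is known to turn on, 8 were at least 2-fold higher with 50 IU/mL IL-2 on day 3 and 0 lower, with a list median of 1.68 beside 0.19 over all genes tested, of which 9.19% were 2-fold apart. With 50 IU/mL IL-2v 9 of 10 were higher, against 9.57% of genes 2-fold apart, and with 50 IU/mL IL-15 4 of 10 (Bcl2, Bcl2l1, Ccnd2 and Cdk6), against 1.08%. Bcl2, which guards cells against death, stood at 83.96 CPM without cytokine and at 557.4, 480.6 and 344.9 CPM with 50 IU/mL of IL-2, IL-2v and IL-15. Pim1, a survival kinase, stood at 191.8 CPM and at 485.5, 420.4 and 336.2 CPM, and Il2ra, the alpha chain that makes the IL-2 receptor a high-affinity receptor, at 149.0 CPM and at 868.6, 594.3 and 257.3 CPM.

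The other SOCS genes, Socs4 to Socs7, had 0 of 4 members 2-fold apart in each of the 12 comparisons with no cytokine. So did the 4 listed genes of the SOCS box machinery (Elob, Eloc, Cul5 and Rnf7). Of all genes tested, 0.248% to 26.7% were 2-fold apart in these comparisons, and at most 1 of Socs4 to Socs7 reached the 20 CPM limit in any of them. On day 5, 5 of the 7 genes listed for interferon response were at least 2-fold lower in the 50 IU/mL IL-2 library. In that of 50 IU/mL IL-2v 6 were, Ifng among them. Socs1 differed by -0.45 and -0.43. Of all genes, 24% and 26.7% were 2-fold apart there. The other day 5 libraries were as follows. With 5 IU/mL IL-2v and 50 IU/mL IL-15, 5 of the 7 were lower and Socs1 differed by 0.06 and -0.10. With 5 IU/mL IL-2, 4 were lower at a Socs1 difference of 0.11, and with 5 IU/mL IL-15 2 at -0.41. Of all genes, 12.4%, 7.72%, 2.5% and 1.74% were 2-fold apart in these 4, in that order. On day 3 the list had 3 genes lower and 1, Ifng, higher with 50 IU/mL IL-2. It had 0 apart with 50 IU/mL IL-2v, and Socs1 differed by 0.78 and 0.70. Of the 7 genes, 4 reached the 20 CPM limit in each day 5 comparison and 2 in these day 3 comparisons. Whether the list and Socs1 go together was not tested.

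Cytokines were compared with each other in 6 pairs of equal day and dose, and a gene was called consistent where all 6 had the same sign and the median difference was at least 1 in size. Cish was consistently higher with IL-2v than with IL-15, by a median of 1.92 and in 6 of 6 pairs (0.35 to 2.34). It was the only one of the 4 genes called there, against 3.06% of 5810 genes. Socs2 was also higher with IL-2v in 6 of 6 pairs, with a median of 0.75 and a single very large pair, day 10 at 5 IU/mL, where it stood at 106 against 3.48 CPM. Without day 3 it was called too (median 1.14). Of the receptor chains Il2ra was called higher with IL-2v, and of the other STAT5 targets Cdk6.

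Between IL-2v and IL-2, 0 of 4 members were consistent, against 1.32% of 5839 genes, and Cish, Socs1 and Socs2 were each higher in 3 and lower in 3 pairs. Socs3, which averaged under 20 CPM with both, was lower with IL-2v in 5 of 6 pairs (median -0.35). For Cish the pairs at 5 IU/mL were 0.95 on day 3, 2.03 on day 5 and -2.43 on day 10, and those at 50 IU/mL were -0.99, 0.31 and -0.12. Between IL-15 and IL-2, again 0 of 4 were consistent, against 2.19% of 5718 genes, although Cish was lower with IL-15 in 5 of 6 pairs with a median of -1.04. The exception was day 5 at 5 IU/mL, where the levels were 18.5 and 17.2 CPM. In cells with no UMI of Mki67 and Top2a, Cish was called lower with IL-15 (median -1.04), against 2.6% of genes. It was also called with the day 5 pairs left out (median -1.71), but that alternative removes the very exception. Without the library of 5 IU/mL IL-2 on day 10, the IL-15 against IL-2 medians were -0.47 for Cish (from -1.04), -0.47 for Socs2 (from -0.63) and 0.29 for Socs1 (from -0.12). Those of IL-2v against IL-2 were then 0.31 for Cish (from 0.09) and 0.25 for Socs2 (from 0.07).

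Dose was examined as 50 against 5 IU/mL within a cytokine, in 3 pairs of equal day. With IL-2v, Cish was higher at 50 IU/mL on all 3 days (1.37, 0.71 and 1.10 on days 3, 5 and 10), and it was 1 of 4 members called, against 3.01% of 5913 genes. With IL-15, Socs2 was higher on all 3 days (0.44, 1.55 and 3.19) and was the 1 member called, against 1.05% of 5523 genes. Cish was higher with the higher IL-15 dose on all 3 days as well (0.59, 0.72 and 3.10), with a median under 2-fold, and it was called without day 3 (1.91) and without day 5 (1.84). Without day 3 the IL-2v call for Cish was lost (median 0.91), and without day 10 the IL-15 call for Socs2 was lost (median 0.99).

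With IL-2, 0 of 4 members were called, against 6.99% of 5879 genes. Cish was higher at 50 IU/mL on day 3 (3.31) and day 5 (2.44) and lower on day 10 (-1.21), and Socs2 likewise (1.55, 1.42 and -0.72). Without the library of 5 IU/mL IL-2 on day 10, an alternative added after the values were seen, both were called higher (2.87 and 1.48). The Socs1 median went from -0.56 to 0.28. Calls over the 3 cytokines, all of Cish or Socs2, were 4 in place of 2. This alternative left out the pair that ran the other way for Cish and Socs2, and fewer pairs make the rule easier to meet. Without day 3, Socs1 was instead called lower at 50 IU/mL, with a median of -1.71. The share of all genes called was not computed for this alternative or for any with a day or library left out.

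**Figure D3:**
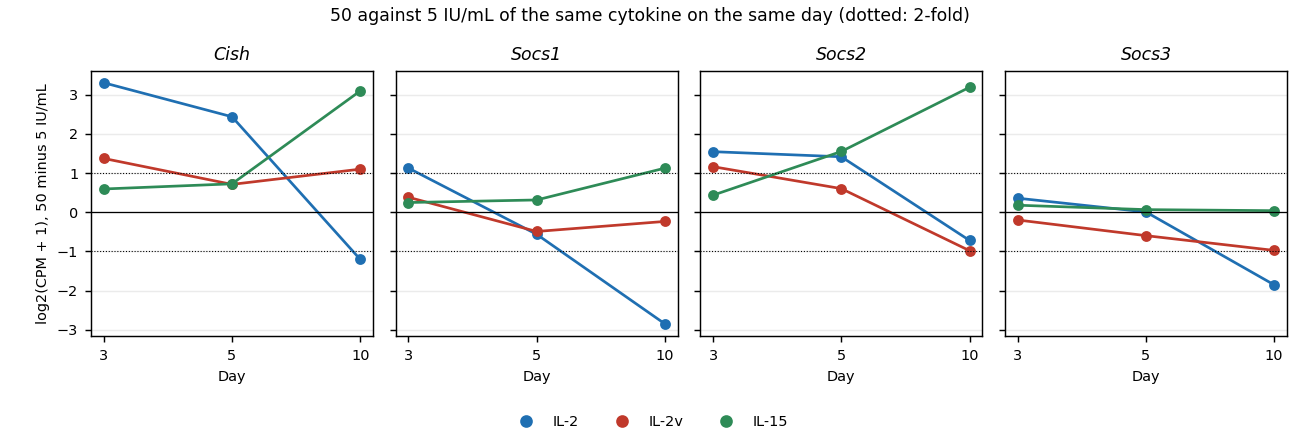
Difference in log2(CPM + 1) between 50 and 5 IU/mL of the same cytokine on the same day (x axis, day, evenly spaced; lines join the 3 days of a cytokine; dotted lines 2-fold). The IL-2 line lies below 0 on day 10 for all 4 genes, to -2.85 for Socs1, while with IL-15 Cish and Socs2 reach 3.10 and 3.19.

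The dose pairs of day 10 were also looked at singly, after their values were seen. With IL-2, Cish (163 against 377 CPM), Socs1 (71.9 against 524.5 CPM) and Socs3 (8.87 against 34.7 CPM) were at least 2-fold lower at 50 IU/mL, 3 of 4 members where 21.1% of 5832 genes were 2-fold apart. Socs3, below 20 CPM at 50 IU/mL, entered this comparison only through its level at 5 IU/mL. The Socs1 difference, -2.85, ranked 40 from the lowest. With TMM scaling the Cish difference was under 2-fold (-0.90). With IL-15 the direction was opposite: Cish (117 against 12.8 CPM), Socs1 (230.7 against 105.1 CPM) and Socs2 (39.8 against 3.48 CPM) were higher at 50 IU/mL, 3 of 4 members against 5.7% of genes. Cish and Socs2, below 20 CPM at 5 IU/mL, entered this comparison only through their levels at 50 IU/mL. With IL-2v, 1 of 4 passed, Cish at 150 against 69.2 CPM, where 11.2% of genes did. Socs2 (53.4 against 106 CPM, -0.98) and Socs3 (6.63 CPM at 50 IU/mL, -0.97) were just short of 2-fold lower. Each passed under 2 alternatives, Socs2 with at most 5% mitochondrial UMIs (-1.09) and Socs3 with ribosomal and mitochondrial genes left out of the totals (-1.01). In cells with no UMI of Mki67 and Top2a both passed, at -1.19 and -1.06.

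Over time, 0 of 4 members were consistent in the 6 pairs of equal cytokine and dose from day 3 to day 5 (3.04% of 5912 genes) or from day 5 to day 10 (1.69% of 5676 genes). Cish was higher on day 5 than on day 3 in 5 of 6 pairs, all but 50 IU/mL IL-2 (97.4 against 147 CPM). Without the library of 5 IU/mL IL-2 on day 10, the medians of day 10 against day 5 were 0.31 for Cish (from 0.52), -0.85 for Socs2 (from -0.62) and -0.46 for Socs3 (from 0.05). From day 5 to day 10 single pairs parted, and 3 of them were looked at after their values were seen.

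With 5 IU/mL IL-2, all 4 members were at least 2-fold higher on day 10 than on day 5, where 6.63% of 5652 genes were 2-fold apart. Cish stood at 377 against 17.2 CPM (4.38, rank 2 from the highest), Socs1 at 524.5 against 161.8 CPM (1.69), Socs2 at 115 against 33.7 CPM (1.73) and Socs3 at 34.7 against 16.2 CPM (1.06, and under 3 alternatives 0.77 to 0.95). Cish and Socs3, below 20 CPM on day 5, entered that comparison and its ranking only through their high levels on day 10. With 50 IU/mL IL-15, Cish was higher on day 10 (117 against 31.2 CPM, 1.88, rank 6 of 5468), the 1 member past 2-fold against 5.27% of genes. With 5 IU/mL IL-15, Socs2 was lower (3.48 against 24.1 CPM, -2.49), the 1 member past 2-fold against 4.78%. Socs2 reached 20 CPM there only on day 5.

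The library of 5 IU/mL IL-2 on day 10 was also compared for other genes of the pathway. Of the 10 other STAT5 targets, 7 were at least 2-fold higher than on day 5 with the same cytokine and dose, where 6.63% of all genes were 2-fold apart (Pim1, Bcl2, Bcl2l1, Cdk6, Myc, Osm and Lta). Their levels there were not all high: Cdk6 (87.6 CPM, rank 13 of 21), Pim2 (100.5 CPM, rank 13) and Ccnd2 (472.7 CPM, rank 14) lay below the medians of the other libraries, 102.3, 136.0 and 498.9 CPM. Osm, a cytokine gene, stood at 55.2 CPM against at most 32.2 CPM in the other 20 libraries, and Bcl2 at 1173 against at most 1015 CPM. Cd69 and Egr1, which T cells turn on after receptor engagement, stood at 213 and 55.5 CPM against at most 145 and 27.02 CPM elsewhere, while Nr4a1, another such gene, had its lowest level of the 21 libraries there, 0.17 CPM. Il2ra was at 106 CPM, rank 14 of 21. Of 5495 genes that averaged 20 CPM or more, 10.2% were highest in this library. There, the NK marker list (Ncr1 and Klrb1c) summed to 22.0 CPM, within its range of 0 to 36.7 CPM, and 18.2% of cells had a Mki67 or Top2a UMI; their part in the result was not tested.

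Single cells were compared after each was thinned at random to 2000 UMIs, which left out 57 to 393 shallower cells per library. A gene could be read in a cell only where it gave a UMI, so shares are of cells with a UMI and not of cells that express the gene. Cish gave a UMI in 51.0% of thinned cells on day 10 with 5 IU/mL IL-2 and Socs1 in 62.2%, against 74.8% and 81.8% of all cells unthinned. Elsewhere Cish ranged from 0.76% in naive cells to 26.6% on day 10 with 50 IU/mL IL-2, and Socs1 from 8.68% in naive cells to 35.7% on day 10 with 50 IU/mL IL-15. Cells with 3 or more Socs1 UMIs made up 12.8% of that low-dose IL-2 library and at most 1.97% of any other. All libraries held CD8 T cells, so no cell type that should lack these genes could be set beside the shares. Socs2 ranged from 0.45% in naive cells to 22.5% on day 3 with 50 IU/mL IL-2, and Socs3 from 1.31% on day 10 with 50 IU/mL IL-2v to 7.90% in naive cells.

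A cell with UMIs of 3 or all 4 genes was rare outside that library. Such cells made up 9.54% of thinned cells on day 10 with 5 IU/mL IL-2, followed by 2.45% on day 3 with 50 IU/mL IL-2, 1.36% on day 5 with 50 IU/mL IL-2v and 1.26% on day 5 with 50 IU/mL IL-2. In naive cells they made up 0.0671%, and 83.5% of naive cells had a UMI of none of the genes.

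**Figure D4:**
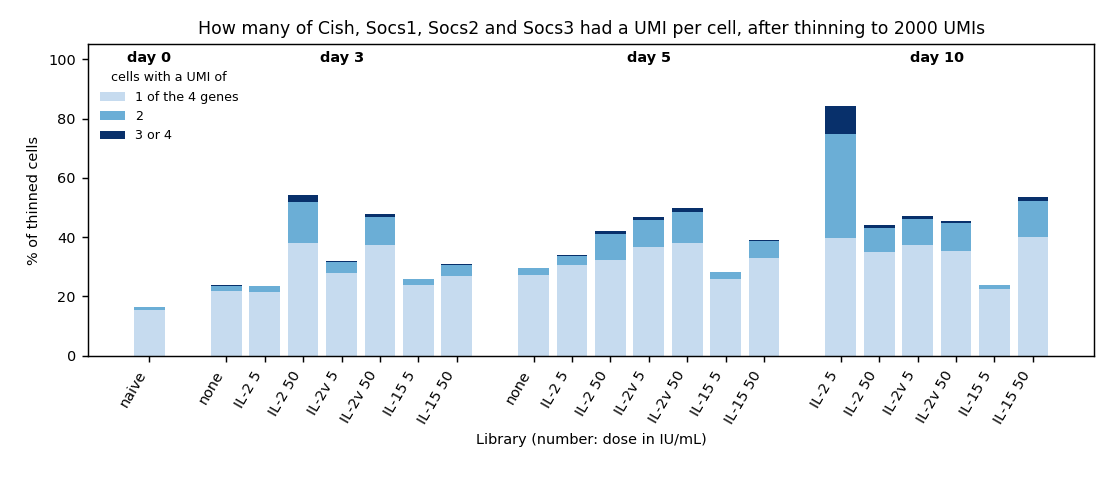
Share of thinned cells in each library with a UMI of 1, 2 or at least 3 of the 4 genes (stacked bars from 0, libraries ordered by day, cytokine and dose). Cells with 3 or 4 of the genes reach 9.54% in the library of 5 IU/mL IL-2 on day 10 and at most 2.45% in the other 20.

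Whether the genes were found in the same cells was examined by setting the number of thinned cells with both genes of a pair against the number that the product of the 2 shares gives. This was done for 6 pairs of genes in every library where at least 10 such cells were to be found, 97 values in all, of which 70 were above the product. Socs1 and Socs3 were together more often than the product in 17 of 21 libraries, with a median ratio of 1.18, and Cish and Socs2 in 12 of 13, with a median ratio of 1.11. Cish and Socs1 were so in 15 of 19 (1.11), and Socs1 and Socs2 in 8 of 19 (0.97). Cish and Socs3 were so in 8 of 11 (1.035), and Socs2 and Socs3 in 10 of 14 (1.08). Other pairs of genes were not counted this way, so whether values above the product are usual is not known. On day 10 with 5 IU/mL IL-2, 2027 cells had both Cish and Socs1 where the product gave 1928.5, so 65.4% of Cish-positive and 58.9% of Cish-negative cells had a Socs1 UMI.

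Proliferating cells, in which Mki67 or Top2a gave a UMI, were compared with the other cells of the same library by CPM in 20 libraries with at least 200 cells of each kind. Their share ran from 3.01% in naive cells to 86.9% with 50 IU/mL IL-2v on day 3. Socs3 was lower in proliferating cells in 20 of 20 libraries, with a median difference of -0.54, and Socs1 in 19 of 20, with a median of -0.36. In the day 3 library without cytokine, Socs1 stood at 61.1 CPM in proliferating and 125 CPM in other cells. Cish had no common direction, higher in 9 and lower in 11 libraries, from -0.70 on day 3 without cytokine to 0.94 on day 10 with 5 IU/mL IL-15 (24.03 against 12.1 CPM). Socs2 was lower in 16 of 20 (median -0.21). The CPM intervals of Cish were apart in 7 of its lower and 2 of its higher libraries. For Socs1, Socs2 and Socs3 they were apart in 16, 8 and 13 libraries, all of them lower. By share of thinned cells, in 19 libraries, Socs1, Socs2 and Socs3 were each lower in 18 and Cish in 11. The intervals of the lower shares were apart in 12 libraries for Socs1 but in 3 for each of the other genes, and Cish was higher with intervals apart in 1. The same counts over all genes were not made, so whether lower values are usual in proliferating cells is not known.

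Cells with a UMI of Il2ra after thinning were compared with those without in the 19 libraries with at least 200 cells of each kind. Socs2 was more frequent in the Il2ra-positive cells of 18 of 19 libraries, by a median of 2.76 percentage points, and the intervals of the 2 shares did not overlap in 8. The widest gap was on day 5 with 50 IU/mL IL-2v, where 24.6% (22.9% to 26.3%) of Il2ra-positive and 16.4% (14.9% to 17.9%) of Il2ra-negative cells had a Socs2 UMI. The exception was 50 IU/mL IL-15 on day 10 (6.87% against 7.23%). Cish was more frequent in 15 of 19 libraries, by a median of 0.42 points, with 2 pairs of intervals apart, 3.18 points on day 3 with 5 IU/mL IL-2v and 5.13 points on day 5 with 50 IU/mL IL-2. Socs1 was more frequent in 8 of 19 and Socs3 in 9 of 19. The Socs1 intervals were apart in 3 libraries, lower in Il2ra-positive cells with IL-2v on day 3 (by -5.10 points at 5 and -3.76 at 50 IU/mL) and higher by 4.71 points on day 5 with 50 IU/mL IL-2. Those of Socs3 were apart in 0. No such counts were made over all genes, so whether these are usual in Il2ra-positive cells is not known.

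**Figure D5:**
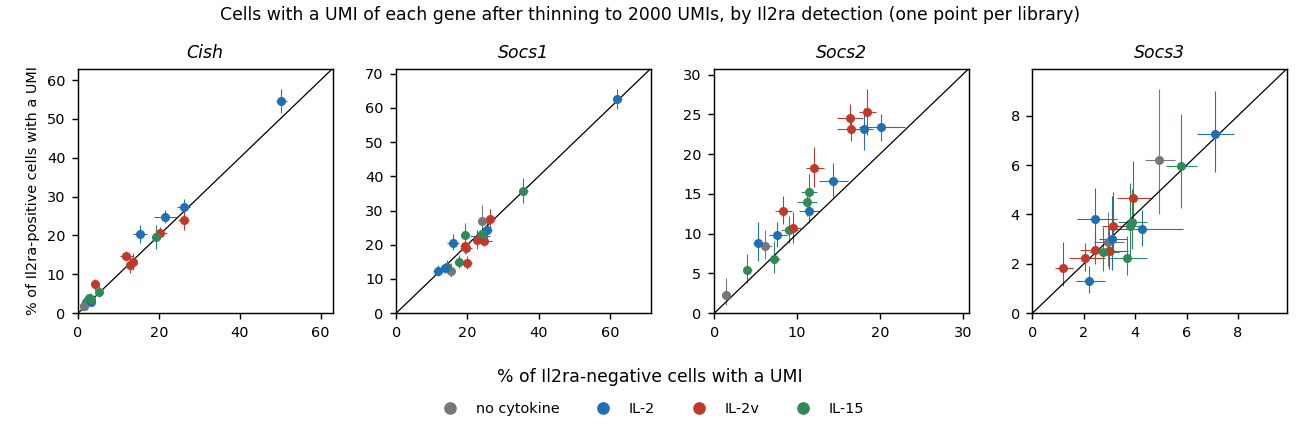
Share of thinned cells with a UMI of each gene among Il2ra-positive cells (y axis, %) against Il2ra-negative cells of the same library (x axis, %), with 95% Clopper-Pearson intervals and a line of equal shares. Socs2 lies above the line in 18 of 19 libraries, by up to 8.21 percentage points, and Cish in 15.

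Across the 21 libraries, which differ in depth and share the culture days, the 4 genes did not follow one pattern. As a description, the Pearson correlation of log2(CPM + 1) was 0.71 between Cish and Socs2 (Spearman's rho 0.74), 0.60 between Cish and Socs1 (rho 0.42, and Pearson 0.45 without the library of 5 IU/mL IL-2 on day 10) and -0.52 between Socs2 and Socs3 (rho -0.33, and Pearson -0.66 without that library). Socs2 correlated with Pim1 at 0.89 (rho 0.89), with Il2ra at 0.86 (rho 0.74) and with Il2rb at 0.86 (rho 0.68), and Cish with Cdk6 at 0.80 (rho 0.81, and Pearson 0.90 without that library). Socs3 ran against Il2rb (-0.77, rho -0.74) and with Il7r (0.71, rho 0.66). Without that library these other 5 Pearson values moved by less than 0.05. Socs1 followed such genes less: 0.06 with Il2ra, 0.03 with Il2rb, 0.32 with Pim1 and 0.12 with Cdk6, though 0.50 with Bcl2. Without that library the Socs1 values were 0.11, 0.12, 0.25, 0.20 and 0.41. Cish correlated at 0.50 with Il2ra (0.57 without that library), and Socs2 at 0.45 with Bcl2 (0.42 without it).

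The genes whose levels were most like each member over the 21 libraries were named by Pearson correlation among 5492 genes that averaged 20 CPM or more. For Cish they were Stc2 (0.89), F2r (0.89), Lrrc32 (0.88), Herpud1 (0.87) and Mapkapk3 (0.87). Stc2 encodes a secreted glycoprotein, F2r a thrombin receptor, Lrrc32 a surface protein that holds latent TGF-beta, Herpud1 a protein of the endoplasmic reticulum stress response and Mapkapk3 a kinase. Mapkapk3 is also the nearest protein-coding neighbour of Cish, on the opposite strand with 6148 bases between the genes, and ranged from 14.3 to 53.0 CPM, highest in the same library as Cish.

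For Socs2 they were Gm17767 (0.95), a long noncoding RNA, Nudt4 (0.92), Plp2 (0.91), Vim (0.91) and Prelid2 (0.90). Nudt4, which encodes a phosphohydrolase, lies on the strand and chromosome of Socs2 with 129826 bases between the genes. Vim encodes the filament protein vimentin, and Plp2 shares 18.4% of its exonic bases with Prickle3 on the opposite strand. For Socs3 they were Asxl2 (0.91), Pan3 (0.91), Arid4a (0.90), Stim1 (0.89) and Washc2 (0.89), of which Stim1 encodes the calcium sensor of the endoplasmic reticulum. The likeness to Socs1 was weaker, with Cers4 (0.75), Upf3a (0.73), Eif3m (0.72), Ngdn (0.71) and Gm17018 (0.70), which shares 28.8% of its exonic bases with Fbxw4 on the opposite strand. Without the library of 5 IU/mL IL-2 on day 10 these 5 correlations were between 0.46 (Cers4) and 0.62 (Eif3m).

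Which genes came out as most like a member depended on the measure and on single libraries. Of the 5 named, Spearman's rho kept 4 for Cish, 1 for Socs1, 0 for Socs2 and 1 for Socs3. Leaving out the naive library kept 2 for Cish, 1 for Socs1, 2 for Socs2 and 3 for Socs3, and leaving out the library of 5 IU/mL IL-2 on day 10 kept the same numbers.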

How the data were processed

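The authors deposited raw UMI counts per gene symbol and cell barcode, 1 table per library. Per the submitters' processing notes, Cell Ranger, Seurat 4.0.1 and 3.0.2 and the build mm10 were used, with no role given. Filters and doublet removal are not given in the sources used here, and no doublet caller was run. Per the labels' protocols cells came from culture, although the extraction text describes sorted tumour cells. Day 7 was not analysed here.

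Barcodes below 1000 UMIs or 500 genes or above 10% mitochondrial UMIs were dropped, which left 106456 of 106458. UMIs were summed per library, scaled to 1000000 (CPM) and compared as log2(CPM + 1), with a pseudocount of 1. A gene was tested against the 2-fold rules at 20 CPM or more, averaged over pairs, in either arm. Counts of members and of listed genes include those below 20 CPM. CPM have exact Poisson and shares Clopper-Pearson 95% intervals, which cover counting error only. For shares, cells were thinned to 2000 UMIs.

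The members, the pathway lists and the rules were chosen with earlier results of these data known. Named were the 4 members, genes of those lists and the 5 genes most correlated with each member. Groups came from titles. Alternatives were cell filters, doublet and lineage exclusions, TMM scaling (edgeR 4.0.16), totals without ribosomal and mitochondrial genes, a pseudocount of 10, CPM averaged over cells, no filter, cells without Mki67 or Top2a, days left out and other thinning. Promoters came from RefSeq and gene positions from GENCODE vM21. Work used Python 3.11.15, numpy 2.4.6 and scipy 1.17.1.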

Additional observations from a re-analysis of the deposited data

Results flagged for a closer look

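The following differences between log2(CPM + 1) values ran in opposite directions in 2 conditions under the same contrast, and whether they differ was not tested, since each condition had 1 library. For Cish, the step from 5 to 50 IU/mL IL-2 was 3.31 on day 3 and -1.21 on day 10. On day 10 that Cish step was -1.21 with IL-2 and 3.10 with IL-15. At 5 IU/mL, Cish with IL-2v against IL-2 differed by 2.03 on day 5 and by -2.43 on day 10. For Socs1, the step from 5 to 50 IU/mL IL-2 was 1.13 on day 3 and -2.85 on day 10. On day 10 that Socs1 step was -2.85 with IL-2 and 1.13 with IL-15. Also on day 10, Socs1 with IL-15 against IL-2 differed by -2.31 at 5 IU/mL and by 1.67 at 50 IU/mL. For Socs2 at 5 IU/mL, day 10 against day 5 differed by -2.49 with IL-15 and by 1.73 with IL-2. All 7 of these contrasts involve the library of 5 IU/mL IL-2 on day 10.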

How the results depend on the processing

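None of the 71 pairs and medians of at least 2-fold changed direction under the alternatives run. Of 92 recomputed counts of members, 85 stayed within 1.5 times the value reported. Among them were the counts of members consistent between days, which were 0 in every setting. Other values depended more on the processing. Of 1908 recomputed single pairs, 331 were classed as moved. Of the recomputed medians over pairs, 305 were classed as the same and 87 as moved. Of 168 recomputed shares of cells, 167 were classed as moved. A share of cells with a UMI changes with depth by construction, so thinning to 1000 UMIs or not at all had to move it. In cells with no UMI of Mki67 and Top2a, 4 in place of 2 members were 2-fold apart on activation. Calls of members as consistent between cytokines numbered 2 in place of 1 there, both of Cish. The latter count was also 2 without day 3, of Cish and Socs2, and 2 without day 5, both of Cish. Without the library of 5 IU/mL IL-2 on day 10, chosen after seeing the data, calls as consistent between doses numbered 4 in place of 2. All were of Cish or Socs2. Gene pairs found together more often than the product of their shares numbered 70 of 97, then 35 of 54 with thinning to 1000 UMIs and 114 of 120 with no thinning. The call for Cish with 50 IU/mL IL-15 on day 3 (1.04) was lost under 5 settings, with values of 0.60 to 0.97. With TMM scaling, which moved the median of all genes by up to 0.39, Cish between IL-2 doses on day 10 came to -0.90 and Socs3 with 5 IU/mL IL-2 from day 5 to day 10 to 0.90, both under 2-fold, and Socs3 with 50 IU/mL IL-2v on day 5 to -1.20 (from -0.89). The cause of these changes was not tested. Counts of all genes called moved by more than 1.5 times in 63 of 280 recomputations (28 comparisons under 10 settings), 27 of them with no filter on expression, 25 with a pseudocount of 10 and 7 in cells with no UMI of Mki67 and Top2a. Depth limits values of low genes, and Cish, Socs2 and Socs3 reached 20 CPM in 12, 18 and 5 of 21 libraries.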
